A study of Mus musculus with 18 samples.

Results

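The genes described here encode the proteins of the cytosolic ribosome. They were taken from the gene symbols of the count files: every symbol that starts with Rpl or Rps followed by a digit, plus Rpsa, Rplp0, Rplp1 and Rplp2, without symbols holding -ps and without the Rps6k kinases. The rule gave 92 of 43280 genes. Of these, 43 were proteins of the large subunit, 31 of the small subunit and 3 of the P stalk. A further 8 were paralogues of subunit genes, 6 were retrocopies, and Rps19bp1 encodes a partner of RPS19 rather than a subunit. The rule left out 252 symbols holding -ps and 10 Rps6k kinases.

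Ribosomes hold most of their proteins in equal numbers, and cells make them in step with each other and with ribosomal RNA. Their mRNAs are short, abundant and mostly begin with a run of pyrimidines, the 5′ terminal oligopyrimidine (TOP) tract, through which mTORC1 and LARP1 adjust their translation. Ribosome production is high in growing and dividing lymphocytes, and resting naive T cells are small cells with a low rate of protein synthesis.

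The study compared mouse T-lineage cells by RNA sequencing of total RNA, with 18 libraries made from sorted cells. CD4+CD8+ cells (n = 3) and Artificial CD8 cells (n = 5) were differentiated on OP9-DL1, a stromal line that presents a Notch ligand, from cells labelled Pmel iPSC (induced pluripotent stem cells). iRTE cells (n = 5) were CD8+ T cells of the same iPSC source. They are by elimination the cells of the 3D thymic culture named in the design text, since the labels do not expand the abbreviation and list OP9-DL1 as the growth protocol of every sample. Splenic CD8 cells (n = 5) were naive CD8+ T cells taken ex vivo from the spleen of transgenic mice, so culture and source differ together between them and the other groups and cannot be told apart. No treatment was given to any group, and the labels do not give the age of the mice, the number of iPSC clones or whether replicates were separate cultures or animals. The p-values therefore measure the spread between these libraries, which may be technical. Descriptions name iRTE 1 to 3 as mature A to C and iRTE 4 and 5 as pmel_iRTE.

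Libraries held 11132768 to 19305751 gene counts. All 8 T-cell markers checked (among them Cd3e, Lck, Cd8a and Cd8b1) had counts in every group. Levels are given as CPM, the count of a gene relative to the library total and scaled to 1000000. The 5 markers checked for the CD4+CD8+ stage were Cd4, Rag1, Rag2, Dntt and Ptcra. Cd4 was at 0 in every iRTE library, and Rag1 and Ptcra were at 0 in every splenic library. Dntt was present in all splenic libraries, at 39.9 to 42.9 CPM. Artificial CD8 had counts of all 5 markers, with a mean Rag1 level of 155 CPM. Their summed level there lay between 300 and 333 CPM. That sum was at least 796 CPM in every CD4+CD8+ library and at most 15.1 CPM in any iRTE library. The summed CPM of 12 stromal genes ran from 1.53 to 82.8 in CD4+CD8+, 17.9 to 27.1 in Artificial CD8, 0.861 to 4.19 in iRTE and 2.41 to 4.13 in splenic CD8. Those of 7 B-cell genes ran from 37.3 to 51.4 in splenic CD8 and from 3.08 to 23.8 elsewhere. Those of 6 erythroid genes ran from 93.5 to 128 in splenic CD8 and reached no more than 2.61 elsewhere. The sum of 5 cell-cycle genes (Mki67, Top2a, Ccnb1, Cdk1, Birc5) ran from 1251 to 1406 CPM in CD4+CD8+, 897 to 1204 in Artificial CD8, 96.7 to 612 in iRTE and 86.7 to 124 in splenic CD8. The part of other cell types and of cycling in the results below was not tested.

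The promoter table of RefSeq (build GRCm38.p6) matched 67 of the 92 genes, with 79 start sites. A C at the first transcribed base followed by at least 4 C or T stood at 14 of the 79 start sites (17.7%), against 823 of 32851 start sites of all genes (2.51%). When the C was allowed within 5 bases of the annotated start on either side, the shares were 40.5% and 18.3%. The windows of 30 bases below (20 before the start, 10 from it, 5′ to 3′) show the tract in capitals in members that the results return to, and a member without one. Rps6 and Rps18 are small-subunit genes and Rplp2 is a P stalk gene with the tract at the annotated start. Rps27 and its retrocopy Rps27rt are shown with the paralogue Rps27l, because mean levels of Rps27l were lowest in splenic CD8 and theirs were not. Rps26 and Rpl10 are shown because they were low relative to the other members in splenic CD8.
Rps6: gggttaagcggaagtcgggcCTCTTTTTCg
Rps18: acttatacgtcacttccgctCTCTCTTCCa
Rplp2: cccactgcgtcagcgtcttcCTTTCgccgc
Rps27: acaggatttccgctttcgctCCTTTCCggc
Rps27rt: ggttaagaacttatcccttgCTTTCCggcg
Rps27l: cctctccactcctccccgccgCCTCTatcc
Rps26: agcgggtcgggcaagccgccggatCCTCTT
Rpl10: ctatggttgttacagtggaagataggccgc
These windows lie at chr4:86857358-86857387 (minus strand) for Rps6, chr17:33955656-33955685 (minus strand) for Rps18, chr7:141447631-141447660 (plus strand) for Rplp2 and chr3:90213639-90213668 (minus strand) for Rps27. Those of Rps27rt, Rps27l, Rps26 and Rpl10 lie at chr9:114982730-114982759 (minus strand), chr9:66946066-66946095 (plus strand), chr10:128626497-128626526 (minus strand) and chrX:74270796-74270825 (plus strand). In the tracts that reach the last base shown, the capitals stop with the window. Rps27l has another annotated start site, with its window at chr9:66946393-66946422 (plus strand), and no tract was found there.

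In the 300 bases around the start sites (250 before, 50 from the start), the letters CCGGAAG, a core recognised by ETS-family factors, occurred on either strand in 34.2% of the members' windows and in 8.86% of all windows. The letters AAGATGGC, a YY1 core that can overlap the former by 3 bases, occurred in 10.1% and 2.75%. CACGTG, the E-box bound by MYC and MAX, occurred in 10.1% and 7.15%. These matches describe the sequence only.

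Ribosomal protein genes took the smallest share of counts in splenic CD8 cells. Their summed counts made up 2.54%, 2.18%, 2.27%, 2.44% and 2.26% of all gene counts in the 5 splenic libraries. In Artificial CD8 the shares were 3.81%, 3.88%, 3.74%, 3.89% and 4.09%. The CD4+CD8+ libraries held 5.50%, 3.46% and 3.66%, and the iRTE libraries held 5.04%, 4.81%, 6.63%, 3.33% and 3.57%. Every splenic library lay below every cultured library. Among the cultured groups the ranges overlapped, with CD4+CD8+ 1 and iRTE 3 standing high and iRTE 4 and 5 standing below iRTE 1 to 3. The group means were 2.34% ± 0.149 (SD, n = 5) in splenic CD8, 3.88% ± 0.131 (SD, n = 5) in Artificial CD8, 4.21% ± 1.12 (SD, n = 3) in CD4+CD8+ and 4.67% ± 1.32 (SD, n = 5) in iRTE. The mean share of Artificial CD8 was 1.66 times, that of CD4+CD8+ 1.80 times and that of iRTE 1.999 times the splenic mean. In such bulk libraries fewer cells of a type and less of an RNA per cell cannot be told apart. A share also says nothing of the RNA content of a cell.

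**Figure D1:**
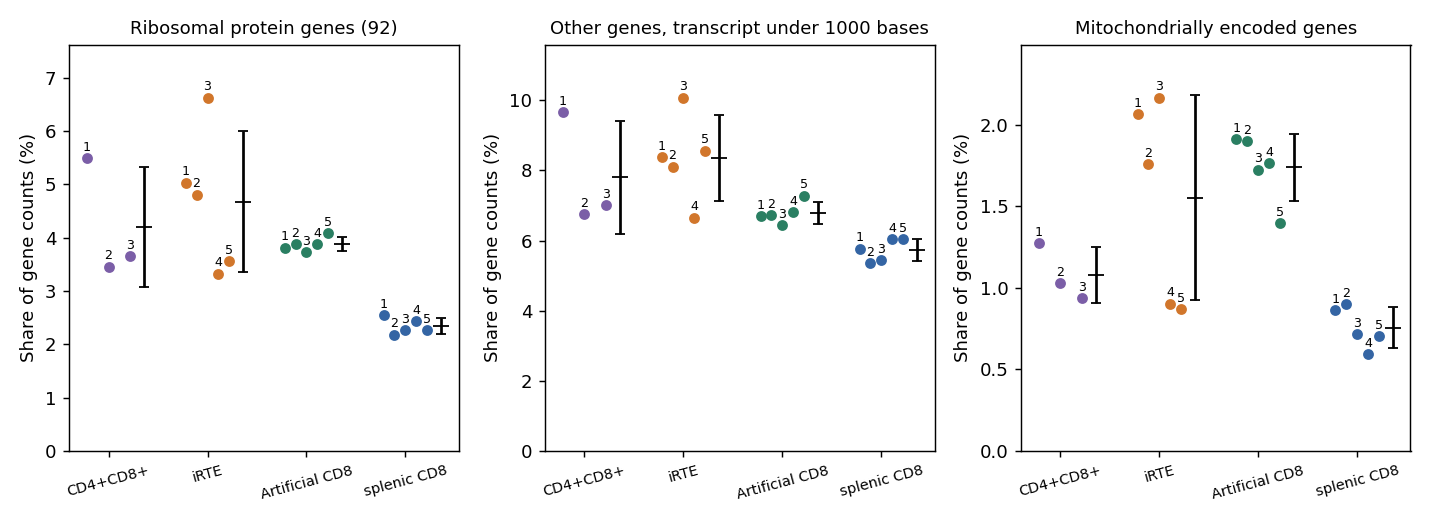
Share of gene counts (%) per library for the 92 ribosomal protein genes (left), for other genes with transcripts under 1000 bases (middle) and for genes of the mitochondrial genome (right). Points are libraries numbered by replicate, and black bars are the group mean with SD; the 5 splenic libraries lie below every other library in the left and middle panels.

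The share of other short genes was also lowest in splenic CD8. Within iRTE it followed that of the ribosomal protein genes only in part. Genes outside the family with transcripts under 1000 bases took 9.66%, 6.75% and 7.003% of counts in CD4+CD8+, and 8.38%, 8.11%, 10.1%, 6.66% and 8.57% in iRTE. They took 6.44% to 7.28% in Artificial CD8 and 5.36% to 6.04% in splenic CD8. CD4+CD8+ 1 and iRTE 3 were the highest of their groups in both shares. iRTE 5 had more short-gene counts (8.57%) than iRTE 1 and 2. Its ribosomal protein share (3.57%) lay below theirs (5.04% and 4.81%). Genes of the mitochondrial genome took 1.76% to 2.17% in iRTE 1 to 3, 0.868% to 0.903% in iRTE 4 and 5, 0.938% to 1.27% in CD4+CD8+, 1.40% to 1.91% in Artificial CD8 and 0.592% to 0.900% in splenic CD8. The part of these differences between libraries in the ribosomal protein results was not tested beyond the values by transcript length given further on.

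Both subunits had the same order of groups in their mean shares. In these shares and ratios the P stalk genes were counted with the large subunit. Large-subunit genes took 1.29% ± 0.0801 (SD, n = 5) of counts in splenic CD8, 2.06% ± 0.0677 (SD, n = 5) in Artificial CD8, 2.35% ± 0.600 (SD, n = 3) in CD4+CD8+ and 2.55% ± 0.661 (SD, n = 5) in iRTE. The small-subunit shares were 1.02% ± 0.0668, 1.75% ± 0.0581, 1.78% ± 0.507 and 2.06% ± 0.654 in the same groups (SD, same n). The ratio of large-subunit to small-subunit counts lay between 1.17 and 1.18 in Artificial CD8, between 1.24 and 1.29 in splenic CD8 and between 1.28 and 1.35 in CD4+CD8+. In iRTE it spread from 1.16 to 1.34, with iRTE 4 and 5 at the top.

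Per kilobase of transcript, Rpl13 had a mean level over all libraries of 1664 CPM per kb, Rps18 of 1460 CPM per kb and Rps27 of 1258 CPM per kb. The 10 members with the most counts held 32.3% to 35.8% of the ribosomal protein counts of a group. Rpl24, a large-subunit protein, had 5.20 to 15.8 CPM in any library. Of the low members, Rpl10l had no count in any library. Reads of ribosomal protein genes can also match pseudogenes: the 252 symbols holding -ps together held 0.012% to 0.037% of counts, and how multi-mapping reads were counted is not given in the sources used here. Pseudogenes under any other kind of symbol were not counted in that share. The values of members with near-identical copies are uncertain, because the handling of multi-mapping reads is not known.

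After edgeR's filter on low counts, 88 members and 13922 genes in all were tested. Rpl3l, Rpl10l, Rps12l1 and Rps12l2 did not pass the filter, and Rpl39l passed it only through the splenic libraries. Log2 fold changes below are fitted values, the ± is a standard error (SE) from the within-group variances of log2 CPM, and p-values are those of edgeR's quasi-likelihood test with Benjamini-Hochberg adjustment over all genes tested, with a threshold of 0.05. The 3 comparisons with splenic CD8 share the same 5 splenic libraries.

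With TMM scaling, most of the tested ribosomal protein genes were lower in splenic CD8 than in each cultured group. Against CD4+CD8+, 74 of the 88 members tested fell in splenic CD8, 1 rose and 13 did not pass, where 28.9% of all genes fell and 27.4% rose. Against iRTE, 83 fell, 1 rose and 4 did not pass, where 29.2% of all genes fell and 29.0% rose. Against Artificial CD8, 74 fell, 1 rose and 13 did not pass, where 30.3% of all genes fell and 30.2% rose. The median log2 change of the tested members was -0.93 against CD4+CD8+, -1.21 against iRTE and -0.79 against Artificial CD8, and the medians over all genes were 0.03, 0.05 and 0.03. Every splenic library lay below every library of the other group for 74 members against CD4+CD8+, 77 against iRTE and 78 against Artificial CD8, where 30.7%, 18.6% and 29.9% of all genes did so. The 1 member counted as higher in each comparison was Rpl39l, which entered the test only through its splenic counts, so that its direction was set by the filter. It was also the 1 member with every splenic library above every library of the other group, where 32.7%, 22.7% and 31.1% of all genes were. Its counts are given with the paralogues below. Without CD4+CD8+ 1 the median against CD4+CD8+ was -0.66. When libraries were scaled on short genes outside the family, a scaling described with transcript length below, 30 members fell against CD4+CD8+ (median -0.29), 74 against iRTE (median -0.60) and 52 against Artificial CD8 (median -0.41).

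**Figure D2:**
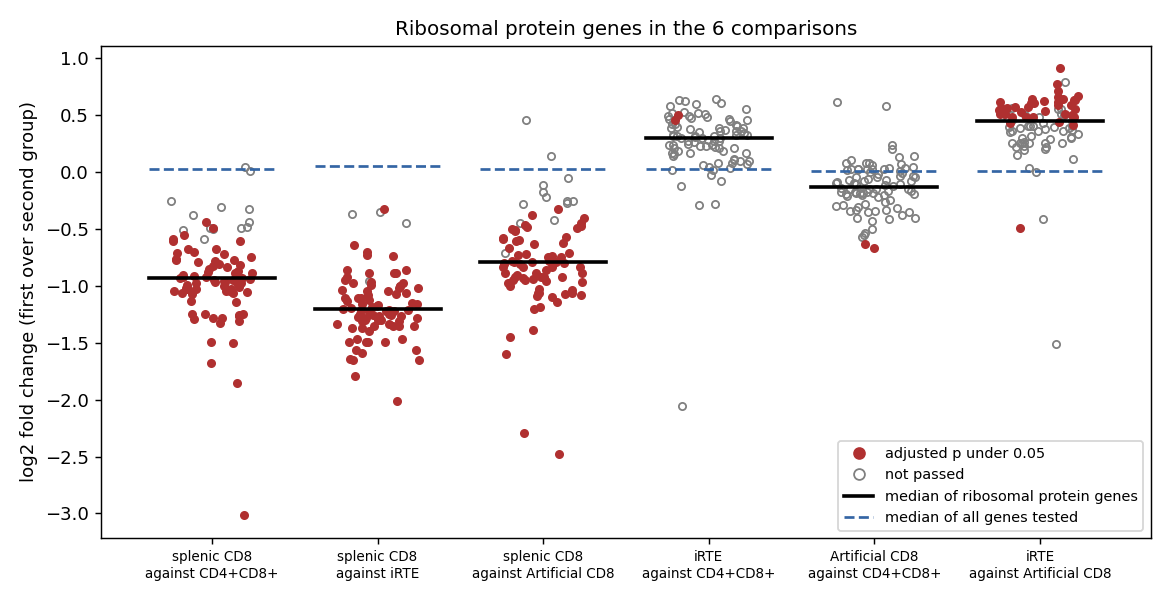
Fitted log2 fold change of each tested ribosomal protein gene in the 6 comparisons (first group over second). Filled points passed the threshold, open points did not, black lines are the medians of the tested members and dashed lines the medians of all genes tested; Rpl39l, which has no count in 2 of the groups, is not drawn, and most members lie below the all-gene median in the 3 comparisons with splenic CD8.

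Within the large subunit, 38 of 43 genes fell in splenic CD8 against CD4+CD8+, 43 against iRTE and 35 against Artificial CD8, and none rose. Rpl3, which lies near the peptidyl transferase centre, had 725, 663, 696, 720.2 and 714 CPM in splenic CD8. It had 1417, 1142 and 1156 CPM in CD4+CD8+, 1929, 1945, 2317, 1016 and 1284 in iRTE and 1280.0, 1274, 1236, 1301 and 1344 in Artificial CD8. No splenic library overlapped another group, and Rpl3 fell by 0.89 (SE 0.12, adjusted p = 0.00101 by edgeR) against CD4+CD8+, with -1.47 ± 0.25 against iRTE (adjusted p = 1.77e-06) and -0.93 ± 0.03 against Artificial CD8 (adjusted p = 0.000193), all on the log2 scale. Rpl10, which joins the large subunit late in its assembly, had 324, 294, 287, 309.8 and 286 CPM in splenic CD8 and 885, 557 and 630.1 CPM in CD4+CD8+. Its level was 865, 878, 1097, 541 and 709 CPM in iRTE and 749, 779, 700.1, 739 and 811 CPM in Artificial CD8. The groups did not overlap with splenic CD8, and the log2 changes in edgeR were -1.28 ± 0.21, -1.64 ± 0.20 and -1.39 ± 0.05.

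Rpl5 and Rpl11 encode the proteins that bind 5S ribosomal RNA and, with Rpl23, can hold MDM2 and so stabilise p53 when ribosome assembly fails. All 3 genes fell in splenic CD8 in each of the 3 comparisons. Rpl5 had 254, 232, 223, 238 and 259.5 CPM in splenic CD8, 588, 376 and 369 in CD4+CD8+, 422, 414, 582, 269 and 390.4 in iRTE and 419, 442, 385, 405 and 462 in Artificial CD8. The highest splenic library (259.5 CPM) lay just below the lowest iRTE library (269 CPM, iRTE 4). Rpl11 had log2 changes of -0.92 ± 0.27, -1.16 ± 0.29 and -0.59 ± 0.06 against CD4+CD8+, iRTE and Artificial CD8, with the largest adjusted p, 0.0261 by edgeR, in the last.

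Of 8 genes of the peptide exit tunnel (Rpl4, Rpl17, Rpl19, Rpl23a, Rpl26, Rpl31, Rpl35, Rpl39), all 8 fell in splenic CD8 against CD4+CD8+ and against iRTE, and 5 fell against Artificial CD8. Those that did not pass in the last were Rpl4 (-0.22 ± 0.03, adjusted p = 0.0558 by edgeR), Rpl31 (-0.45 ± 0.09, adjusted p = 0.0685) and Rpl35 (-0.26 ± 0.10, adjusted p = 0.18). Rpl4 had 1050.3, 1007, 1002, 1046 and 994 CPM in splenic CD8 and 1149.5, 1160.3, 1109, 1112 and 1184 CPM in Artificial CD8, so that every splenic library was lower by a small margin. In CD4+CD8+ it had 1853, 1651 and 1732 CPM, and in iRTE 1694, 1658, 1259, 1254 and 1571 CPM. Rpl4 was thus higher in CD4+CD8+ than in Artificial CD8 in every library.

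Within the small subunit, 27 of 31 genes fell in splenic CD8 against CD4+CD8+, 30 against iRTE and 30 against Artificial CD8, and none rose. The 7 genes of the decoding site and the mRNA path (Rps2, Rps3, Rps15, Rps23, Rps26, Rps28, Rpsa) fell in all 3 comparisons. Rps26, which contacts the mRNA at its exit from the ribosome, fell most of them. It had 112, 92.9, 95.8, 107 and 89.4 CPM in splenic CD8, 461, 291 and 272 in CD4+CD8+, 374, 405, 599, 153 and 200.2 in iRTE and 259.1, 264, 259.2, 255 and 274 in Artificial CD8. Its levels in iRTE 4 and 5 were below those of every other cultured library. The log2 changes of Rps26 were -1.86 ± 0.26 (adjusted p = 5.98e-05), -2.01 ± 0.39 (adjusted p = 8.97e-06) and -1.46 ± 0.07 (adjusted p = 0.000192) in edgeR.

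Rpsa, the laminin receptor precursor that sits on the back of the small subunit, had 715, 672, 672, 624.8 and 679.5 CPM in splenic CD8 and 2054, 1202 and 1313 CPM in CD4+CD8+. In iRTE it had 1876, 1786, 2564, 1020.1 and 950.4 CPM and in Artificial CD8 1438, 1505, 1396, 1511 and 1497 CPM. The splenic libraries overlapped no other group, and the log2 changes in edgeR were -1.26 ± 0.25, -1.49 ± 0.31 and -1.18 ± 0.04. Rps6, whose protein is phosphorylated by the S6 kinases below mTORC1, had 382, 323, 346, 382 and 350.5 CPM in splenic CD8. Its levels elsewhere were 682, 523 and 528 CPM in CD4+CD8+, 745, 735, 647, 469.5 and 568.0 CPM in iRTE and 515, 522, 507, 503 and 527 CPM in Artificial CD8. Rps6 fell in splenic CD8 by less than the median member, with log2 changes of -0.77 ± 0.15, -1.02 ± 0.16 and -0.58 ± 0.05 (adjusted p = 0.00023, 3.15e-06 and 0.000771 by edgeR). Rps27a, made as a fusion with ubiquitin, changed by -0.91 ± 0.27, -1.12 ± 0.25 and -0.94 ± 0.06, and passed in all 3 comparisons.

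Rps19, the gene most often mutated in Diamond-Blackfan anaemia, changed less. It had 682, 556, 602, 696 and 614 CPM in splenic CD8, 1035, 636 and 653 in CD4+CD8+, 1179, 1083, 1659, 752 and 825 in iRTE and 803, 804, 799, 855 and 892 in Artificial CD8. Splenic and CD4+CD8+ libraries overlapped, and that change did not pass (-0.38 ± 0.25, adjusted p = 0.153 by edgeR). It passed against iRTE (-1.002 ± 0.24, adjusted p = 0.000244) and, close to the threshold, against Artificial CD8 (-0.45 ± 0.07, adjusted p = 0.0494). Of 12 genes linked to that anaemia, Rps19 was the one that did not fall against CD4+CD8+, and all 12 fell against iRTE and against Artificial CD8. Rps19bp1, the gene of the RPS19 partner, had 12.8 to 23.4 CPM in all 18 libraries and passed in no comparison.

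The P stalk recruits the elongation factors to the ribosome. Rplp0 had 928, 870.3, 877, 927 and 892 CPM in splenic CD8, 2230.4, 1462 and 1645 in CD4+CD8+, 2361, 2313, 3054, 1513 and 1592 in iRTE and 1822, 1817, 1784, 1885 and 1864 in Artificial CD8. Rplp0 fell in splenic CD8 with log2 changes of -1.06 ± 0.19, -1.47 ± 0.22 and -1.08 ± 0.03, without overlap. Rplp2 had 153, 129, 136, 153 and 126 CPM in splenic CD8 and changed by -0.87 ± 0.28, -1.22 ± 0.24 and -0.93 ± 0.07, passing each time. Rplp1 had 284, 209.8, 239, 258.8 and 215 CPM in splenic CD8 and 439, 262 and 275 in CD4+CD8+, which overlapped, and there it did not pass (-0.51 ± 0.26, adjusted p = 0.0588 by edgeR). It passed against iRTE (-1.02 ± 0.24, adjusted p = 0.000221) and Artificial CD8 (-0.51 ± 0.09, adjusted p = 0.0299).

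Rps27, a small zinc-finger protein of the small subunit, was the only gene of the core subunits and the P stalk that passed in none of the 3 comparisons with splenic CD8. It had 535, 387, 437, 445 and 386 CPM in splenic CD8 and 563, 345 and 328 CPM in CD4+CD8+. In iRTE it had 518, 455, 716, 424 and 356 CPM, and in Artificial CD8 355, 374, 378, 391 and 417 CPM. The splenic range overlapped all 3 other ranges, and the log2 changes were 0.01 ± 0.28 (adjusted p = 0.978), -0.37 ± 0.22 (adjusted p = 0.0965) and 0.14 ± 0.10 (adjusted p = 0.536) in edgeR. Rpl37a and Rpl10a, both of the large subunit, did not pass against CD4+CD8+ or Artificial CD8. For Rpl37a the log2 changes there were -0.31 ± 0.26 and -0.27 ± 0.09 (adjusted p = 0.232 and 0.222 by edgeR). For Rpl10a the log2 changes were -0.44 ± 0.23 and -0.12 ± 0.06 (adjusted p = 0.0939 and 0.61), and -0.70 ± 0.25 against iRTE (adjusted p = 0.00428 by edgeR).

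To see which members departed from the rest of the family, the same fit was run with the summed ribosomal protein counts of a library as its size, which makes each change relative to the ribosomal protein pool. On this scale 17 of 88 members were higher and 12 lower in splenic CD8 than in CD4+CD8+, where 50.9% and 8.75% of all genes were. Against iRTE 13 were higher and 12 lower, where 66.0% and 6.05% of all genes were. Against Artificial CD8 22 were higher and 11 lower, where 52.8% and 11.2% of all genes were. The high shares of all genes that were higher follow from the scale, since the pool itself is lower in splenic CD8. Members within 1.25-fold of the pool made up 67.05%, 80.68% and 71.59% of those tested in the 3 comparisons. Between the cultured groups few members left the pool: 1 was higher (Rps19) and 1 lower in iRTE against CD4+CD8+, where 3.58% and 10.6% of all genes were. In Artificial CD8 against CD4+CD8+, Rps14 and Rps27l were higher and 1 member was lower, where 2.36% and 1.6% of all genes were. In iRTE against Artificial CD8, 1 member was higher (Rpl37) and 3 were lower, where 6.12% and 20.6% of all genes were. Of the 3, Rps27l and Rps14 are described below, and Rpl39l had 0 counts in every iRTE library and 1, 1, 0, 0 and 8 in Artificial CD8, was tested only because of its splenic counts, and is not read as a difference. The shares of members within 1.25-fold of the pool were 90.91% for iRTE against CD4+CD8+, 87.5% for Artificial CD8 against CD4+CD8+ and 92.05% for iRTE against Artificial CD8.

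The members that were lower than the pool in splenic CD8 in all 3 fits, which share the splenic libraries, were Rps26, Rps27l and Rpl10. Not all calls on the pool scale held when libraries or scaling were changed, as given at the end. Rps26 made up 0.396% to 0.441% of the ribosomal protein counts in splenic CD8, 0.742% to 0.842% in CD4+CD8+, 0.656% to 0.694% in Artificial CD8 and 0.46% to 0.904% in iRTE. The splenic range lay below all others, with iRTE 4 (0.46%) nearest to it. Its pool-relative log2 changes were -0.93, -0.72 and -0.67 (adjusted p = 0.000341, 0.000599 and 0.00132 by edgeR). Rpl10 made up 1.27% to 1.35% of the pool in splenic CD8, 1.61% to 1.72% in CD4+CD8+, 1.62% to 1.99% in iRTE and 1.87% to 2.01% in Artificial CD8. Its pool-relative log2 changes were -0.36, -0.45 and -0.60 (adjusted p = 0.015, 0.000816 and 7.77e-05 by edgeR).

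Higher than the pool in splenic CD8 in all 3 fits were Rps27, Rpl10a, Rpl12, Rpl37a, Rps19bp1 and Rps27rt. Rpl39l is also among the members counted as higher, but it entered the fits only through its splenic counts. Rps27 made up 1.71% to 2.1% of the pool in splenic CD8, 0.896% to 1.02% in CD4+CD8+, 0.947% to 1.27% in iRTE and 0.931% to 1.02% in Artificial CD8. Its pool-relative log2 changes were 0.94, 0.81 and 0.92 (adjusted p = 2.85e-05, 1.27e-05 and 3.07e-06 by edgeR). Rpl10a made up 0.659% to 0.694% in splenic CD8 against 0.462% to 0.497% in CD4+CD8+, 0.431% to 0.503% in iRTE and 0.414% to 0.433% in Artificial CD8. Rpl12, a protein at the base of the P stalk, made up 0.598% to 0.644% in splenic CD8 and 0.391% to 0.426%, 0.372% to 0.486% and 0.386% to 0.422% in CD4+CD8+, iRTE and Artificial CD8. For Rps27, Rpl10a and Rpl12 no splenic library overlapped a cultured one on this scale. Rps27rt had only 1.52 to 4.78 CPM, and how reads that match both it and Rps27 were counted is not known.

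**Figure D3:**
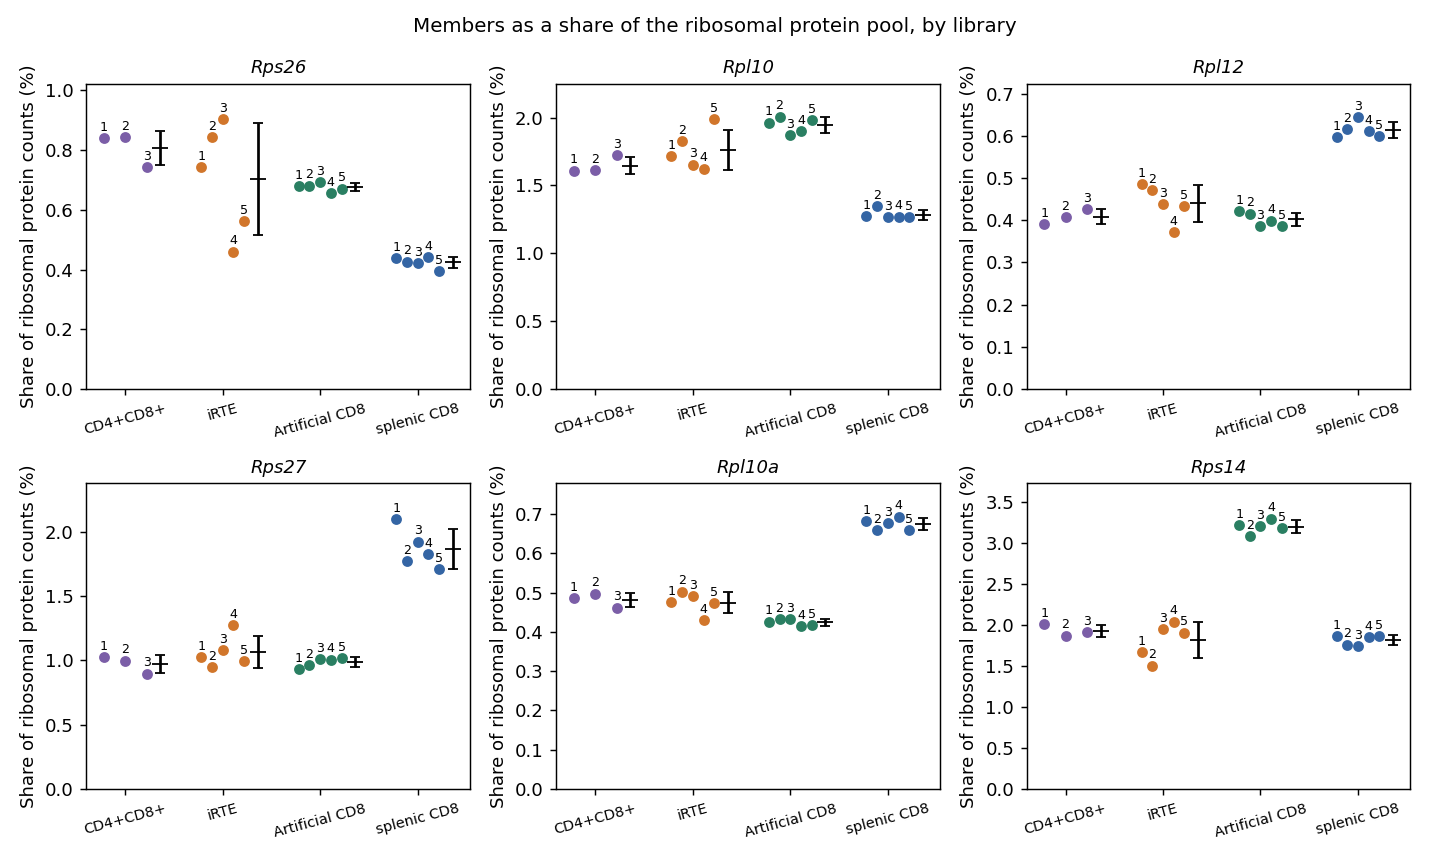
Share of the ribosomal protein counts (%) held by 6 members in each library. Points are libraries numbered by replicate and black bars are the group mean with SD; Rps26 and Rpl10 are lowest and Rps27, Rpl10a and Rpl12 highest in splenic CD8, and Rps14 is highest in Artificial CD8.

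Rps14 departed from the pool in a cultured group. This gene, of a small-subunit protein near the mRNA exit, had 1227, 1195, 1196, 1281 and 1298 CPM in Artificial CD8, 1103, 646 and 698 in CD4+CD8+, 839, 722, 1290.3, 678 and 679.7 in iRTE and 474, 383, 395, 450.3 and 421 in splenic CD8. Artificial CD8 lay above CD4+CD8+ and splenic CD8, and its range overlapped iRTE through iRTE 3. As a share of the pool Rps14 made up 3.08% to 3.29% in Artificial CD8 and at most 2.04% in any other library. The pool-relative log2 change was 0.73 for Artificial CD8 against CD4+CD8+ (adjusted p = 0.00289), -0.82 for iRTE against Artificial CD8 (adjusted p = 2.34e-05) and -0.82 for splenic CD8 against Artificial CD8 (adjusted p = 5.29e-06) in edgeR. On the scale of all genes the first of these did not pass (0.58 ± 0.25, adjusted p = 0.0747).

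Between iRTE and CD4+CD8+ few members passed. Rpl13a and Rpl18 rose in iRTE, none fell and 86 did not pass, where 11.8% of all genes rose and 12.3% fell. The median log2 change of the tested members was 0.30 and that of all genes 0.02. Rpl13a, which leaves the ribosome to join the GAIT complex after interferon-gamma, had 662, 575, 669, 516 and 587 CPM in iRTE and 599.6, 398 and 427 CPM in CD4+CD8+. The ranges overlapped through CD4+CD8+ 1, and the log2 change was 0.45 ± 0.22 (adjusted p = 0.0256 by edgeR). Rpl18 had 674, 645, 831, 519 and 540.2 CPM in iRTE and 650.4, 400.4 and 427 CPM in CD4+CD8+, again overlapping through CD4+CD8+ 1 (0.50 ± 0.28, adjusted p = 0.044). No member had every iRTE library above every CD4+CD8+ library, where 8.22% of all genes did, and 1 had every iRTE library below, where 11.5% did. The number that rose was 21 without CD4+CD8+ 1 or without iRTE 4, 17 without iRTE 5, and 0 or 1 without any other single library of these groups. With iRTE 1 to 3 alone 59 members rose, and with iRTE 4 and 5 alone none rose and 12 fell, with a median of -0.25.

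Between Artificial CD8 and CD4+CD8+, 2 members fell, among them Rpl4, none rose and 86 did not pass, where 8.12% of all genes fell and 6.54% rose. Rpl4, whose values are given with the exit tunnel above, changed by -0.63 ± 0.06 (adjusted p = 0.000915 by edgeR). The median log2 change was -0.14, against 0.00 for all genes, and it was 0.16 without CD4+CD8+ 1. After TMM scaling, 1 member (Rps14) was higher in every Artificial CD8 library than in every CD4+CD8+ library and 10 were lower, where 14.2% and 14.9% of all genes were.

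Between the groups of CD8+ cells grown from iPSC, 35 of 88 members rose in iRTE against Artificial CD8, 1 fell (Rps27l) and 52 did not pass, where 20% of all genes rose and 18.7% fell. The median log2 change was 0.44, against 0.01 for all genes. Of the risers 24 were of the large subunit, 9 of the small subunit, 1 of the P stalk and 1 a retrocopy. Among members that rose and had at least 10 CPM, the largest rises were in Rpl37 (0.77 ± 0.28, adjusted p = 0.00953 by edgeR), Rpl36 (0.71 ± 0.23), Rpl35 (0.66 ± 0.16) and Rpl31 (0.65 ± 0.26), all of the large subunit. Rpl37 had 351, 363, 578, 217 and 256 CPM in iRTE and 234, 224, 209, 229 and 248 CPM in Artificial CD8. iRTE 4 lay within the range of Artificial CD8, and the other iRTE libraries lay above it. Every iRTE library lay above every Artificial CD8 library for 4 members (Rpl4, Rpl13a, Rpl18 and Rpl35), where 11% of all genes did so, and below for 0, where 12.6% did.

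The number that rose was 9 without iRTE 3, 17 without iRTE 1, 20 without iRTE 2, 59 without iRTE 4 and 54 without iRTE 5, and 18 to 27 without any 1 library of Artificial CD8. With iRTE 1 to 3 alone, 77 members rose against Artificial CD8 and 1 fell, with a median log2 change of 0.73. With iRTE 4 and 5 alone 1 rose and 6 fell, with a median of -0.15. Rpsa shows the split: iRTE 1 to 3 had 1876, 1786 and 2564 CPM, all above the 1396 to 1511 CPM of Artificial CD8, and iRTE 4 and 5 had 1020 and 950.4 CPM, both below. Against splenic CD8 the direction was the same in both sets of iRTE libraries, with 85 members lower in splenic CD8 than in iRTE 1 to 3 (median -1.49) and 73 lower than in iRTE 4 and 5 (median -0.62). The sets differ in how the labels describe them, and what else differed between them was not tested.

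The paralogues did not all follow the genes they derive from. Rps27l, a p53-responsive relative of Rps27, had 65.8, 50.5, 52.5, 65.2 and 62.8 CPM in splenic CD8, 242, 139.6 and 159 in CD4+CD8+, 177, 149, 262, 113 and 201 in iRTE and 279, 282, 245.5, 279.8 and 311 in Artificial CD8. It fell in splenic CD8 by more than most members, with log2 changes of -1.68 ± 0.26 (adjusted p = 3.36e-06), -1.79 ± 0.23 (adjusted p = 4.99e-07) and -2.29 ± 0.10 (adjusted p = 1.48e-08) in edgeR, where Rps27 did not pass. It was lower in iRTE than in Artificial CD8 (-0.50 ± 0.23, adjusted p = 0.0474), although the ranges overlapped through iRTE 3. The difference between the changes of Rps27 and Rps27l was not tested.

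Rpl22, a protein needed for the development of alpha-beta T cells, had 49.1, 44.9, 44.3, 49.0 and 44.5 CPM in splenic CD8 and 70.2 to 110.5 CPM in CD4+CD8+, 59.8 to 119.7 in iRTE and 69.7 to 91.8 in Artificial CD8. Rpl22l1 had 46.2, 39.6, 42.7, 44.2 and 43.9 CPM in splenic CD8 and 60.9 to 109.9, 67.6 to 127 and 81.7 to 91.3 CPM in the same order. No splenic library of either gene overlapped another group. Both fell in splenic CD8 in all 3 comparisons, Rpl22 with -0.93 ± 0.23, -1.22 ± 0.23 and -0.84 ± 0.08 and its relative Rpl22l1 with -0.98 ± 0.27, -1.19 ± 0.20 and -1.04 ± 0.05 on the log2 scale. Rpl36a and Rpl36al also fell in all 3, as did Rpl7 and Rpl7l1. The log2 changes of Rpl7l1 were -0.61 ± 0.08, -0.33 ± 0.08 and -0.33 ± 0.08, and the latter pair turned to 0.22 and 0.056 when libraries were scaled on short genes.

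Rpl39l, known for a specialised ribosome of male germ cells, had no count in any CD4+CD8+ or iRTE library. It had 38, 17, 38, 23 and 23 counts in the splenic libraries and 1, 1, 0, 0 and 8 in those of Artificial CD8. The splenic mean was 1.96 CPM, at least 7.77-fold higher than CD4+CD8+ and at least 8.83-fold higher than iRTE when 3 counts per library are taken as the floor (0.155 to 0.269 CPM, counting error only). Since the gene was tested only because of its splenic counts, its change is given as counts with no test. Of the 10 counts in Artificial CD8, 8 came from 1 library. Rpl39, a protein of the exit tunnel, had 112, 84.3, 90.9, 87.6 and 88.9 CPM in splenic CD8 and fell there in all 3 comparisons (-0.95 ± 0.25, -1.26 ± 0.28 and -0.97 ± 0.08).

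Rps4l, a relative of the X-linked Rps4x, had 26.0, 17.9 and 22.4 CPM in CD4+CD8+, 14.8, 16.9, 13.8, 15.9 and 15.6 in Artificial CD8 and 1.58, 2.403, 4.01, 3.62 and 2.78 in splenic CD8. The iRTE libraries had 2.91, 0.647, 1.25, 20.1 and 0 CPM, so that iRTE 4 lay within the CD4+CD8+ range and iRTE 5 had no count. Rps4l fell in splenic CD8 against CD4+CD8+ (-3.02 ± 0.28, adjusted p = 0.00582 by edgeR) and Artificial CD8 (-2.48 ± 0.23, adjusted p = 0.0106), and did not pass against iRTE (-0.96 ± 1.21, adjusted p = 0.295). Rps4x had 859.5, 880.1, 1232, 447 and 542 CPM in iRTE, with iRTE 4 the lowest, and fell in splenic CD8 in all 3 comparisons. Rpl3l, of heart and muscle, had at most 10 counts in any library.

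**Figure D4:**
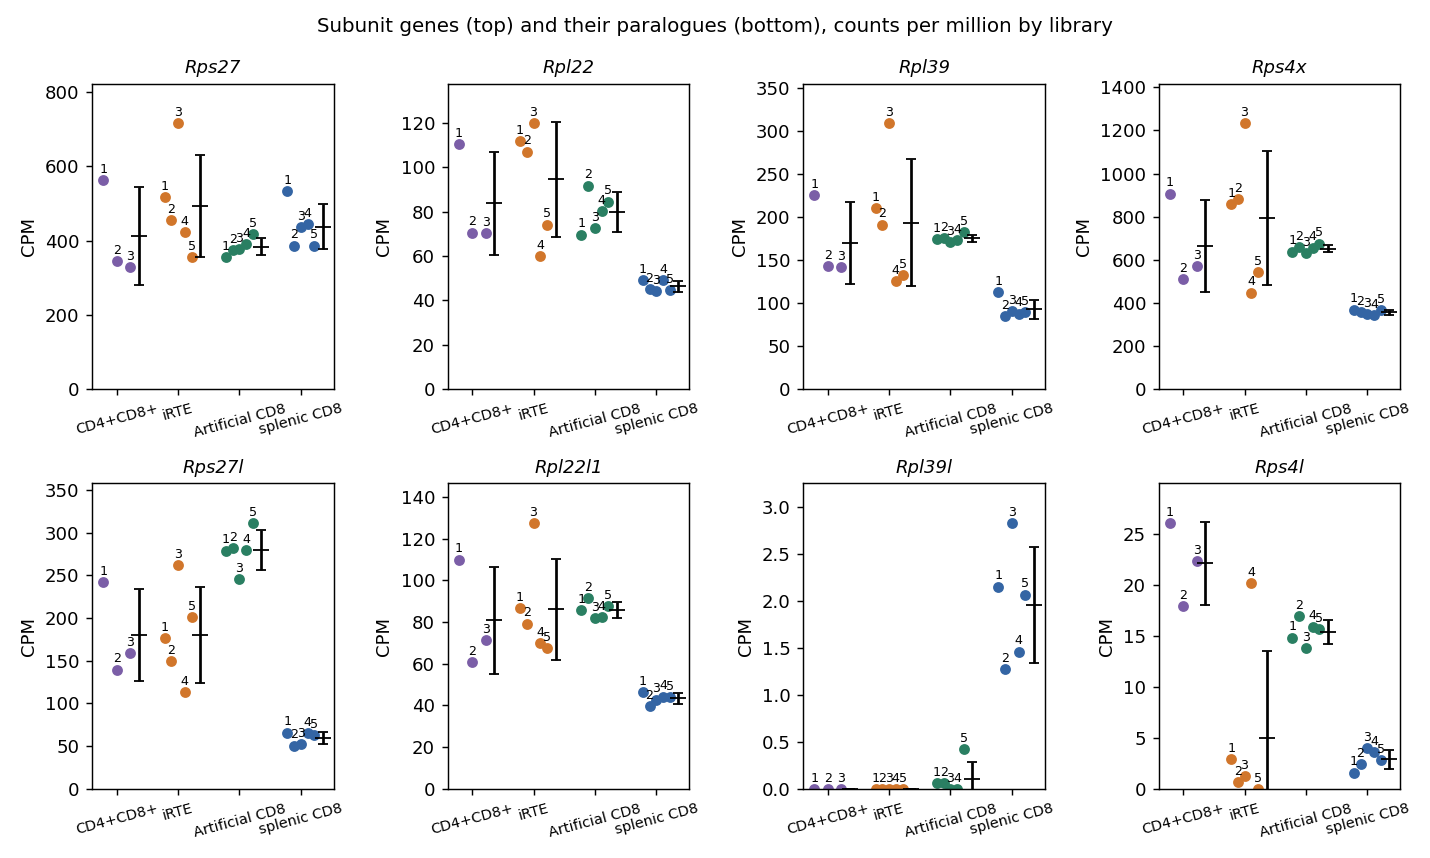
CPM per library of 4 subunit genes (top row) and their paralogues (bottom row), each on its own scale from 0. Points are libraries numbered by replicate and black bars are the group mean with SD; Rps27l is lowest in splenic CD8, where the range of Rps27 overlaps those of the other groups, Rpl39l has counts mainly in splenic CD8, and Rps4l in iRTE is high in iRTE 4 alone.

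Genes that work with the ribosome were counted from written lists. Of 21 elongation factors and other TOP mRNAs, 19 fell and 1 rose in splenic CD8 against CD4+CD8+ (median log2 change -0.93), 19 and 1 against iRTE (-1.13) and 20 and 1 against Artificial CD8 (-0.86). These shares stand beside the 28.9%, 29.2% and 30.3% of all genes that fell. Eef1a1, which brings aminoacyl-tRNA to the ribosome, changed by -0.90 ± 0.05, -1.19 ± 0.24 and -0.78 ± 0.01. Eef2, the translocase, changed by -0.84 ± 0.05, -1.31 ± 0.16 and -0.93 ± 0.03. The gene that rose was Eif4a2, a helicase of initiation, with 2.02 ± 0.12, 1.81 ± 0.32 and 2.25 ± 0.07 (adjusted p = 9.09e-06, 3.05e-06 and 1.53e-07 by edgeR).

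Genes of ribosomal proteins whose symbols the rule does not catch also fell. Fau, whose protein is a fusion of a ubiquitin-like domain with a ribosomal protein, fell in splenic CD8 in each comparison. Fau changed by -0.76 ± 0.22, -1.18 ± 0.24 and -0.48 ± 0.05. Gnb2l1 (RACK1), a scaffold on the small subunit, changed by -1.06 ± 0.26, -1.36 ± 0.19 and -1.11 ± 0.04.

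The counts of the other lists stand beside the 28.9%, 29.2% and 30.3% of all genes that fell in splenic CD8 against CD4+CD8+, iRTE and Artificial CD8, and the 27.4%, 29.0% and 30.2% that rose. Of 26 initiation factors 20 fell and 0 rose in splenic CD8 against CD4+CD8+, 15 fell and 1 rose against iRTE, and 19 fell and 1 rose against Artificial CD8. Of 50 genes of ribosome biogenesis 28 fell and 8 rose against CD4+CD8+, 23 fell and 10 rose against iRTE, and 26 fell and 10 rose against Artificial CD8. Npm1, a nucleolar chaperone, fell with -1.67 ± 0.14, -1.26 ± 0.22 and -1.37 ± 0.03, and Mdn1, a remodeller of the pre-60S particle, rose with 2.51 ± 0.10, 2.22 ± 0.29 and 1.54 ± 0.17. Of 20 RNA polymerase I genes 8 fell in each comparison, and 4, 5 and 6 rose. Of 8 tested host genes of small nucleolar RNAs 4, 3 and 4 rose and 0, 0 and 1 fell. Of 76 tested genes of the mitochondrial ribosome 61, 60 and 55 fell and 2, 2 and 4 rose, with medians of -0.80, -0.77 and -0.63.

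Of 23 regulators of TOP mRNAs and of mTORC1, 8 fell and 11 rose in splenic CD8 against CD4+CD8+, 8 and 6 against iRTE, and 7 and 9 against Artificial CD8, beside the same shares of all genes (28.9%, 29.2% and 30.3% falling, 27.4%, 29.0% and 30.2% rising). Myc, which drives transcription of ribosomal protein genes and ribosomal DNA, changed by -1.45 ± 0.08, -2.50 ± 0.29 and -1.63 ± 0.08. Myc was also higher in iRTE than in CD4+CD8+ (1.05 ± 0.28, adjusted p = 0.00525 by edgeR) and than in Artificial CD8 (0.87 ± 0.28, adjusted p = 0.00324). The iRTE libraries were uneven in Myc, with a mean of 399 CPM and an SD of 237.8. The SD was 3.81 around 203.9 CPM in CD4+CD8+ and 5.22 around 233.9 CPM in Artificial CD8. Eif4ebp1, a repressor of cap-dependent initiation, fell in splenic CD8 with -1.85 ± 0.20, -2.09 ± 0.15 and -2.88 ± 0.12. Mtor rose with 1.11 ± 0.16, 1.05 ± 0.13 and 0.86 ± 0.12. Larp1, which binds the TOP tract, fell with -0.29 ± 0.04, -0.74 ± 0.12 and -0.53 ± 0.07.

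Ribosomal protein transcripts are short, with a median of 772.5 bases against 2342 bases in other genes, and short genes outside the family were also lower in splenic CD8. In splenic CD8 against CD4+CD8+, the median log2 change of other genes was -0.83 with transcripts under 500 bases (72 genes), -0.56 from 500 to under 1000 bases, -0.20 from 1000 to under 2000, -0.01 from 2000 to under 4000 and 0.26 at 4000 bases and over. The ribosomal protein median there was -0.93. Against iRTE the same medians were -0.92, -0.59, -0.20, 0.04 and 0.28, with -1.21 for ribosomal protein genes. Against Artificial CD8 they were -0.65, -0.40, -0.08, 0.03 and 0.15, with -0.79 for ribosomal protein genes. In all 3 comparisons the ribosomal protein median lay below that of every range of lengths, with the shortest genes nearest to it. The members' own median length of 772.5 bases falls in the range from 500 to under 1000 bases. Other genes of that range had medians of -0.56, -0.59 and -0.40, against -0.93, -1.21 and -0.79 for ribosomal protein genes.

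The number of members called changed with the scaling. When libraries were scaled on short genes outside the family, 30 of 88 members fell and 2 rose in splenic CD8 against CD4+CD8+ (median -0.29), 74 fell and 1 rose against iRTE (median -0.60), and 52 fell and 3 rose against Artificial CD8 (median -0.41). That scaling moved the median of all genes to 0.61, 0.60 and 0.41. In iRTE against Artificial CD8 it left 11 members higher and 2 lower (median 0.22), and in iRTE against CD4+CD8+ it gave 21 higher and 0 lower (median 0.32). In Artificial CD8 against CD4+CD8+ it gave 2 higher and 0 lower, and the median turned to 0.12. In splenic CD8 against CD4+CD8+ the changes of Rpl18, Rpl13a and Rpl35 turned to 0.027, 0.19 and 0.084. Whether transcript length or another property shared by short genes moves with the libraries was not tested.

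**Figure D5:**
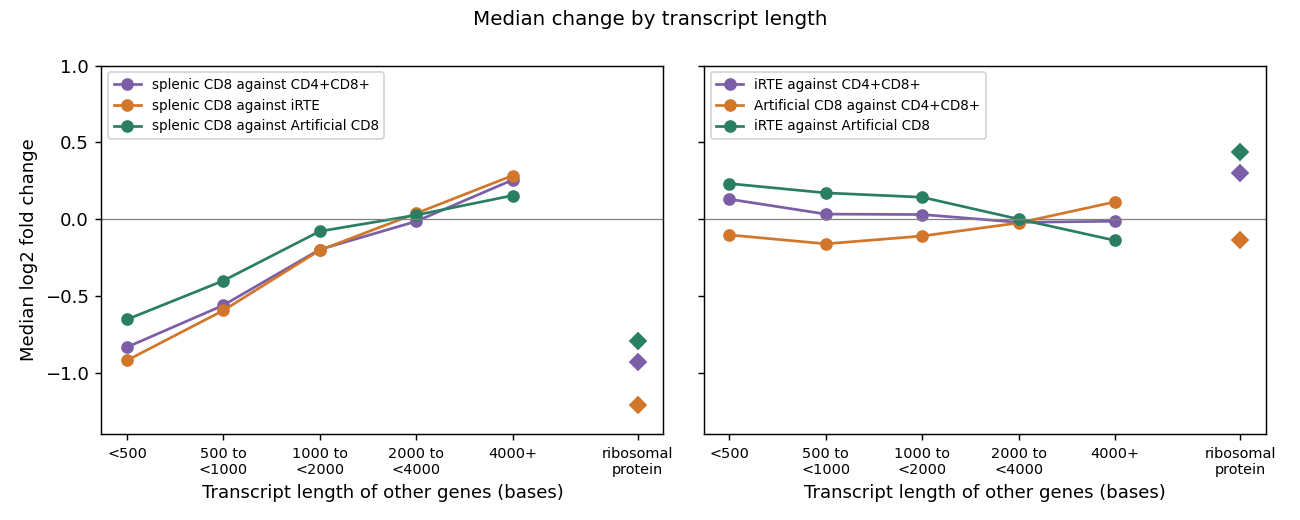
Median log2 fold change of genes outside the family by transcript length (circles joined by lines) and of the tested ribosomal protein genes (diamonds), for the 3 comparisons with splenic CD8 (left) and the 3 among cultured groups (right). In the left panel the shortest genes and the ribosomal protein genes have the lowest medians, and genes of 4000 bases and over have medians above 0.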

How the data were processed

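The deposited values used here are whole-number counts per gene symbol. The submitters' processing notes name STAR 2.4.2, Subread, edgeR and the build mm9. Annotation, strand setting and multi-mapping rules were not given in the sources used. The deposited log2 table was not used.

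Shares are percentages of all gene counts. Genes passing edgeR's default filter (13922) were fitted for all 18 libraries together (edgeR 4.0.16, R 4.3.3, TMM scaling, robust quasi-likelihood F tests, 1 coefficient per group, Benjamini-Hochberg threshold 0.05). A second fit used the summed ribosomal protein counts as library size. SE values use log2 CPM with a prior count of 2. Transcript lengths came from GENCODE vM21 and matched 86 members. Only the TMM-scaled fit was tried on simulated counts, with rises and falls in equal number in a small part of the genes. Many more genes passed in the comparisons with splenic CD8, and the fits on the pool and on short genes were not simulated. The lowest chi-square per degree of freedom between replicates was 4.40, so no replicates were merged.

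The members, the lists and the tests were chosen with earlier results of these data known. Named members were the paralogue pairs and members of known roles, the 4 largest changes past the threshold in each direction (10 CPM or more in the group with the larger mean), the 2 members over 100 CPM nearest to no change in a comparison, and the 3 most abundant. Rpl12, Rpl24, Rps27rt, Rpl13 and Rps18 were named after their values were seen. Some genes that the rule names are not reported here. Alternatives were other scalings, filters, tools and sets of libraries.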

Additional observations from a re-analysis of the deposited data

Results flagged for a closer look

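In groups of 5 libraries, 5 of 126 combinations of a reported measure and a group held a library far from the others (a gap to the nearest that took most of the group's range). Chance gives about 1 in 20. In splenic CD8 1, Rpl39 had 112 CPM (84.4 to 90.9 in the others). In Artificial CD8 5, Rpl39l had 0.418 CPM (0 to 0.0627 in the others) and Rpl35 had 238 CPM (197 to 205.3 in the others). In iRTE 4, Rps4l had 20.1 CPM (0 to 2.91 in the others), and in iRTE 3, Rps14 had 1290.0 CPM (678 to 839 in the others).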

How the results depend on the processing

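In the 3 comparisons with splenic CD8 the median of the tested members stayed below 0 under every alternative run. With short genes outside the family as the basis of scaling (an alternative added after seeing the data), splenic CD8 had 30 members lower and 2 higher against CD4+CD8+ (median -0.29), a median of -0.60 against iRTE, and 3 higher with a median of -0.41 against Artificial CD8; the same scaling gave 21 higher in iRTE against CD4+CD8+, 2 higher, 0 lower and a median of 0.12 in Artificial CD8 against CD4+CD8+, and 11 higher and 2 lower in iRTE against Artificial CD8. Under it Rpl7l1 turned to 0.22 (against iRTE) and 0.056 (against Artificial CD8) in splenic CD8, and Rpl18 to 0.027, Rpl13a to 0.19 and Rpl35 to 0.084 against CD4+CD8+. With iRTE 4 and 5 alone the splenic median against iRTE was -0.62, iRTE against CD4+CD8+ had 0 higher and 12 lower (median -0.25), and iRTE against Artificial CD8 had 1 higher and 6 lower (median -0.15). In that setting the log2 changes of iRTE against Artificial CD8 were -0.42 for Rpl36a, -0.13 for Rpl3, -0.056 for Rplp1, -0.54 for Rpsa, -0.14 for Rpl11, -0.039 for Rps19, -0.54 for Rps26, -0.17 for Rpl28 and -0.044 for Rpl10a, and against CD4+CD8+ they were -0.69 for Rpl7, -0.60 for Rpsa and -0.93 for Rps26. With iRTE 1 to 3 alone iRTE had 59 higher and 1 lower against CD4+CD8+ and 77 higher against Artificial CD8. The causes were not tested.

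A filter at 10 CPM removed Rpl39l and left 0 members higher in splenic CD8 in each comparison. The count of members higher in iRTE than in CD4+CD8+ was 0 with library totals, 1 without a filter, 5 with the filter at 10 CPM, 7 in DESeq2 and 0 when only the groups compared were fitted, and 1 was lower with library totals, in DESeq2 and in limma-voom. Artificial CD8 against CD4+CD8+ had 1 higher with library totals, 2 higher in DESeq2 and in limma-voom, and 2 higher and 8 lower with only the groups compared. iRTE against Artificial CD8 had 15 higher and 3 lower with library totals, 20 and 3 in limma-voom, 18 and 0 with only the groups compared, and 2 lower in DESeq2. Without CD4+CD8+ 1 and iRTE 3 together (added after seeing the data), iRTE had 17 higher against CD4+CD8+ and 17 higher and 2 lower against Artificial CD8, and Artificial CD8 had 2 higher and 1 lower against CD4+CD8+ (median 0.16). Without the 100 highest other genes in the denominator the mean shares were 2.71% in splenic CD8 and 4.597% in Artificial CD8.

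Leaving out each library in turn gave 55 to 78 members lower in splenic CD8 against CD4+CD8+ (1 to 1 higher, median -1.07 to -0.66), 83 to 84 against iRTE (1 to 1 higher, median -1.32 to -0.99) and 66 to 76 against Artificial CD8 (1 to 1 higher, median -0.87 to -0.76). It gave 0 to 21 higher and 0 to 1 lower in iRTE against CD4+CD8+ (median 0.08 to 0.57), 0 to 2 higher and 1 to 3 lower in Artificial CD8 against CD4+CD8+ (median -0.24 to 0.16), and 9 to 59 higher and 0 to 2 lower in iRTE against Artificial CD8 (median 0.25 to 0.57). The mean shares ran from 3.56% to 4.58% in CD4+CD8+, 4.19% to 5.01% in iRTE, 2.29% to 2.38% in splenic CD8 and 3.83% to 3.92% in Artificial CD8. Replicate numbers are shared between groups, but same-numbered libraries did not deviate together (correlations of -0.07 to 0.06 over 24 pairs, none over 0.1). With a replicate block iRTE had 8 higher and 1 lower against CD4+CD8+ and 21 higher and 2 lower against Artificial CD8, and Artificial CD8 had 1 lower against CD4+CD8+. On the pool scale, calls of named members passed again in 448 cases and no longer in 102 when 1 library was left out. They held in 49 and were lost in 10 with TMM among the members, and in 47 and 12 with a replicate block. With iRTE 1 to 3 alone 18 held and 1 was lost, and with iRTE 4 and 5 alone 9 held and 10 were lost. Depth limits values under 0.155 to 0.269 CPM, where a library has fewer than 3 counts.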
